A study of Mus musculus with 20 samples.

Results

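Matrix metalloproteinases (MMPs) and their tissue inhibitors (TIMPs) were followed as transcripts in whole kidneys taken from aged, marrow-transplanted mice. The set holds 8 genes, the proteases Mmp7, Mmp12, Mmp9, Mmp2 and Mmp14 and the inhibitors Timp1, Timp2 and Timp3. All 8 were found, among 26608 genes in the table of LOY and Control kidneys and among 30809 genes in the table of LOY kidneys given ABT263 or a control compound. The genes were chosen from measured group differences in these same tables, so their differences are given as descriptions, without p-values, and the choice itself is not evidence for them. LOY stands for loss of the Y chromosome, here in the blood-forming cells, and 6 kidneys with LOY marrow were compared with 6 kidneys with Control marrow. In a second experiment 4 LOY kidneys given ABT263, a senolytic compound that blocks BCL-2 family proteins, were compared with 4 LOY kidneys given a control compound, so all 8 of these animals carried LOY marrow. Each library was a whole kidney of 1 numbered animal; the sources used here do not give how the Y chromosome was removed, the compound's dose or the time after transplantation. The loss was in the marrow, and a whole kidney holds mostly the host's own tubule, vessel and stromal cells, so a transcript cannot be assigned to marrow or host cells.

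MMPs are zinc proteases that cut collagens, basement membrane, cell adhesion proteins and signalling molecules, and most are made as inactive precursors. TIMPs bind the active site of MMPs and block it, and TIMP2 can also bridge MMP14 to the precursor of MMP2 at the cell surface, where it is activated. In the kidney Mmp7 is known as a gene switched on in injured tubule epithelium and Timp1 as one induced in injury and fibrosis, whereas Timp3 is bound to the matrix and is abundant in healthy kidney.

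Promoters of 4 of the genes are shown, since Mmp7 and Mmp12 lie in one gene cluster with different letters upstream, and Mmp14 and Timp1 are the membrane protease and the inhibitor that the results below turn on. Each run is the 250 bases before the transcription start in RefSeq, build GRCm38.p6, read 5′ to 3′ on the plus strand. Capitals mark AP-1 letters (TGANTCA), ETS letters of the PEA3 kind (AGGAAG), the TATA box (TATAAA) and TCF/LEF letters (CTTTGA), searched on both strands.
Mmp7, chr9:7691840-7692089: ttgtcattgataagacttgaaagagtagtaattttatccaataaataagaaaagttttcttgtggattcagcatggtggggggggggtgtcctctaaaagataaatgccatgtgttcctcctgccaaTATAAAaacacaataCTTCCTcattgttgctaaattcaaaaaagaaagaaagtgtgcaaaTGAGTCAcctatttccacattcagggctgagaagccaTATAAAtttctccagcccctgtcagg
Mmp12, chr9:7344147-7344396: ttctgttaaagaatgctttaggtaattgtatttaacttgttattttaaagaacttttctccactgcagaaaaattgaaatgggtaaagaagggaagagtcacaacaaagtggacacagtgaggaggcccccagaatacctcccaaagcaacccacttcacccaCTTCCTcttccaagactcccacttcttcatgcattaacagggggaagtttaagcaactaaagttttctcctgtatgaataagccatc
Mmp14, chr14:54431348-54431597: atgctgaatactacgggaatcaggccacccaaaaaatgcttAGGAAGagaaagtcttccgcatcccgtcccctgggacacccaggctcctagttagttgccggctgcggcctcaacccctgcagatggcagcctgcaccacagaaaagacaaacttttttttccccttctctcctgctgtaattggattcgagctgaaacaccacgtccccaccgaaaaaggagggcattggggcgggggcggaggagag
Timp1, chrX:20869916-20870165: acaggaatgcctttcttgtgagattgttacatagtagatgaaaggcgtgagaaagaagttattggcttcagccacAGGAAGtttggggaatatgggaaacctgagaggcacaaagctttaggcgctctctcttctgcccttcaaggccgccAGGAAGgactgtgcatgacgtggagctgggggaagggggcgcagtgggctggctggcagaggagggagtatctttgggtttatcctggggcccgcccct

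The Mmp7 promoter held TGAGTCA from -63 to -57 and TATAAA from -26 to -21, with a further TATAAA from -123 to -118 and CTTCCT, the reverse complement of the ETS letters, from -108 to -103. No match overlapped another in these 4 windows, and none of the windows held the TCF/LEF letters. A second RefSeq start of Mmp7, at 7692341, had ETS and TCF/LEF letters in its window but no AP-1 or TATA letters. AP-1 letters were in 6.75% of 32851 RefSeq promoters searched over the same length, the TATA box in 12.4%, and both together in 1.21%. Mmp7 and Mmp12 are among 10 MMP genes that lie side by side on chromosome 9 between 7272514 and 7699585. At or near the gene start, 7 of the 10 cluster promoters held both AP-1 and TATA letters, whereas 0 of 13 promoters of 12 other MMP and TIMP genes held AP-1 letters. The Mmp12 window shown held only the ETS letters, which were in 29.5% of all promoters; a second RefSeq start of Mmp12, at 7347374, had TGAGTCA from -44 to -38. Timp1 had the ETS letters at -175 and -99 and Mmp14 at -209, the positions being those of the first base. RefSeq promoters were matched for 6 of the 8 genes; Mmp2 and Mmp9 had no entry. A match of letters is a description and not a binding site.

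The libraries held 13332563 to 19386408 gene counts in the LOY table and 14587809 to 20791633 in the ABT-263 table. Levels are given as CPM, each count scaled to a common library size with TMM factors, and fold changes are log2 values ± SE from edgeR's quasi-likelihood fit, with Benjamini-Hochberg adjustment over all genes tested and a threshold of 0.05. All 10 markers of proximal tubule, the main cell type of the kidney cortex, were detected in both tables. In the LOY table, 5 of 6 Control animals but 2 of 6 LOY animals had numbers above 10. Control animal 3 was the only Control animal numbered 10 or below. Fits with the number class (above 10 or not) as a term therefore lean on that kidney. With this term 0 genes passed over all genes tested, so a call lost there is not particular to a gene of the set. In the ABT-263 table the ABT263 animals were numbered 15 to 18 and the control-compound animals 6 to 10, so number and treatment cannot be told apart there, and the sources used here do not say what the numbers stand for. Control animal 3, LOY animal 10 and ABT263 animal 16 were each the highest or lowest of their groups for several of the genes. Values without them are given where leaving them out moved a fold change by over 1.5 times or changed a call. The tables were normalized apart, and no level is compared between them.

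In LOY kidneys, 2 of the 8 genes passed the threshold as higher, Mmp7 and Mmp14, against 1.11% of the 14978 genes tested. None of the 8 passed as lower, against 0.0601% of all genes. Fold changes were positive for 7 of the 8 genes, Timp3 being the exception, and their median was 0.94, beside 0.02 over all genes. Mmp7 and Mmp2 were higher in each of the 6 LOY kidneys than in any Control kidney, against 1.56% of all genes, and no member lay lower without overlap, against 0.461%. Since the genes were chosen from this comparison, these shares are not read as a result.

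Mmp7 encodes matrilysin, a small secreted protease without the hemopexin domain that most MMPs carry (chromosome 9, 7692090 to 7699585, GRCm38). It stood at 2.11, 4.14, 3.05, 5.38, 1.48 and 3.59 CPM in LOY animals 5, 8, 9, 10, 14 and 18, against 0.148, 0.132, 0.388, 0.458, 0.733 and 0.870 CPM in Control animals 3, 11, 12, 13, 16 and 17. The lowest LOY kidney, animal 14, was above the highest Control kidney, animal 17. The counts behind these levels were 320 reads over the 6 LOY libraries and 41 over the 6 Control libraries, with 2 to 15 reads in a Control library, so the Control level is loosely set. Mean levels were 3.29 ± 1.41 CPM in LOY and 0.455 ± 0.301 CPM in Control kidneys (SD, n = 6 each), a log2 fold change of 2.82 ± 0.45. Among the animals numbered above 10 alone, it was 2.29 ± 0.54 from 2 LOY and 5 Control kidneys and passed. With the number class as a term it was 2.76 ± 0.53 and missed the threshold. Mmp7 shares 123 exon bases with the antisense gene AV064505, and whether reads were counted by strand is not given.

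Mmp14 encodes MT1-MMP, which sits in the cell membrane, cuts fibrillar collagen and activates the MMP2 precursor (chromosome 14, 54431612 to 54445364). LOY animals 5, 8, 9, 10, 14 and 18 had 34.0, 62.6, 30.4, 62.6, 28.6 and 36.7 CPM, against 28.6, 19.3, 15.7, 15.8, 21.8 and 17.7 CPM in Control animals 3, 11, 12, 13, 16 and 17. The groups met at a single point, where LOY animal 14 lay just under Control animal 3. LOY animals 8 and 10 stood well above the other 4. The means were 42.5 ± 15.8 CPM in LOY and 19.8 ± 4.88 CPM in Control kidneys (SD, n = 6 each), a log2 fold change of 1.10 ± 0.22. Without LOY animals 8 and 10 it was 0.70 ± 0.15, and with the number class as a term 0.81 ± 0.21, both short of the threshold. Among the animals numbered above 10 alone it was 0.86 ± 0.14 and passed.

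Both calls depended on single libraries. Mmp7 and Mmp14 each passed in 6 of 12 fits that left out 1 kidney, with fold changes of 2.61 to 3.12 for Mmp7 and 0.95 to 1.23 for Mmp14. Neither passed without LOY animal 10 or without any single one of Control animals 11, 12, 13, 16 and 17, and in those 6 fits the number of calls over all genes was also low, at 0 to 9, against 176 with all 12 kidneys.

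Mmp2, or gelatinase A, cuts basement membrane collagen and is made mainly by fibroblasts and mural cells (chromosome 8, 92827291 to 92853420). Its level was 23.8, 25.0, 24.1, 42.5, 23.0 and 30.7 CPM in LOY animals 5, 8, 9, 10, 14 and 18, against 22.3, 16.3, 15.3, 17.5, 20.2 and 14.7 CPM in Control animals 3, 11, 12, 13, 16 and 17. The 2 groups did not overlap, but LOY animal 14 and Control animal 3 lay close together. Means were 28.2 ± 7.55 CPM in LOY and 17.7 ± 2.95 CPM in Control kidneys (SD, n = 6 each). The log2 fold change of 0.67 ± 0.17 missed the threshold with edgeR and passed it with DESeq2 (0.66 ± 0.18) and with voom and sample quality weights (0.64 ± 0.13). Without Control animal 3 or without LOY animal 8 it also passed, as it did among the animals numbered above 10 alone (0.68 ± 0.15). The fold change was 0.50 ± 0.13 without LOY animal 10 and 0.57 ± 0.18 with the number class as a term, and passed in neither.

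Mmp12, macrophage elastase, lies in the chromosome 9 cluster (7344381 to 7369499). LOY kidneys ranged from 3.18 over a median of 7.05 to 14.7 CPM, against 1.24, 3.58 and 4.95 CPM as lowest, median and highest of the Control kidneys. Animals 9 and 14 of the LOY group fell within the Control range, and animal 10 was far above the other 5, which lay between 3.18 and 7.47 CPM. The log2 fold change was 1.05 ± 0.36, did not pass the threshold and stood at 0.71 (without LOY animal 10) to 1.21 when single kidneys were left out. With the number class as a term it was 0.73 ± 0.39. Mmp12 shares 157 exon bases with Mmp1b, which had 0 counts in the LOY table.

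Mmp9, or gelatinase B, which neutrophils store and other cells can induce, was the scarcest of the set per length in every group (chromosome 2, 164940780 to 164955850). LOY kidneys had a lowest, median and highest level of 0.922, 1.64 and 3.06 CPM, against 0.348, 0.768 and 2.44 CPM in Control kidneys. The ranges overlapped broadly, with Control animal 3 above 5 of the 6 LOY kidneys. Its log2 fold change of 0.82 ± 0.46 did not pass. It was 1.27 ± 0.43 without Control animal 3, 1.24 ± 0.42 with voom and 0.35 ± 0.43 with the number class as a term, and passed in none of these.

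Timp1, a small secreted inhibitor with growth factor activity, separated the groups but for 1 Control kidney (chromosome X, 20870166 to 20874735). LOY animals 5, 8, 9, 10, 14 and 18 had 10.8, 12.9, 8.23, 13.6, 5.26 and 6.46 CPM, against 12.0, 1.52, 1.40, 2.88, 2.27 and 0.870 CPM in Control animals 3, 11, 12, 13, 16 and 17. All 6 LOY kidneys lay above 5 of the 6 Control kidneys, and Control animal 3 lay among them. The means were 9.54 ± 3.44 CPM in LOY and 3.48 ± 4.22 CPM in Control kidneys (SD, n = 6 each), and the log2 fold change of 1.46 ± 0.52 did not pass. Without Control animal 3 it was 2.41 and passed; with voom, which gives a library that stands apart less weight, it was 2.22 ± 0.37 and passed. With the number class as a term it was 0.97 ± 0.33, and without LOY animals 8 and 10 it was 1.14 ± 0.60, and neither passed. Among the animals numbered above 10 alone, which leaves out Control animal 3, it was 1.72 ± 0.35 and passed. Timp1 lies inside Syn1 on the opposite strand, with 0 shared exon bases, and Syn1 had 106 counts in this table beside 1191 for Timp1.

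Timp2, the inhibitor that takes part in MMP2 activation, differed less (chromosome 11, 118301069 to 118355740). Lowest, median and highest levels were 90.2, 117 and 154 CPM in LOY kidneys and 73.8, 105 and 111 CPM in Control kidneys, with overlap, and the log2 fold change was 0.29 ± 0.14, or 0.19 ± 0.13 without LOY animal 10. The gene Cep295nl lies inside Timp2 on the same strand with 0 shared exon bases, and had 21 counts in the ABT-263 table beside 13594 for Timp2. Timp3, the matrix-bound inhibitor, went the other way (chromosome 10, 86300372 to 86349506). It had 1122, 1479 and 1752 CPM as lowest, median and highest in LOY kidneys, against 1583, 1968 and 2149 CPM in Control kidneys. LOY animals 8, 9, 10 and 18 lay below every Control kidney, and animals 5 and 14 within the Control range. Its log2 fold change of -0.37 ± 0.14 missed the threshold with edgeR and passed with DESeq2 (-0.38 ± 0.13); it was -0.23 ± 0.14 with the number class as a term. Timp3 shares 1733 exon bases with Syn3 on the opposite strand, and Syn3 had 4553 counts beside 308858 for Timp3. How reads in the shared bases were counted is not given, so these counts do not show whether the overlap affects Timp3.

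**Figure D1:**
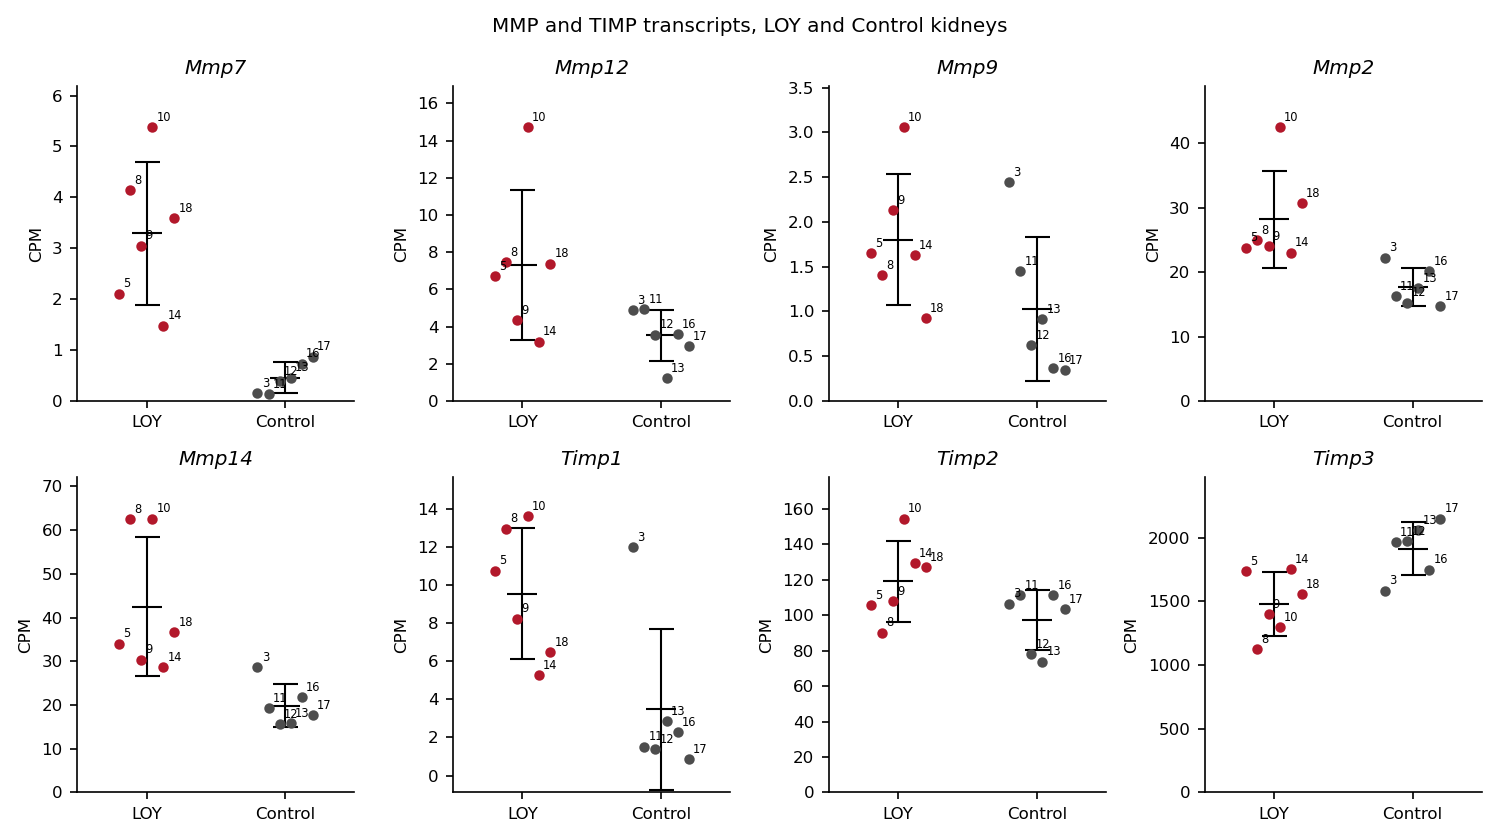
Level in CPM (linear axis) of each of the 8 genes in 6 LOY and 6 Control kidneys; points are kidneys labelled with the animal number, and black marks and bars are the mean ± SD. Mmp7 and Mmp2 do not overlap between the groups, Timp1 is high in 1 Control kidney, animal 3, at 12.0 CPM, and Timp3 is the only gene with a lower mean in LOY kidneys.

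Per length of exon, the order of levels was alike in LOY and Control kidneys for Timp3 and Timp2 at the top and Mmp9 at the bottom, and differed between them. Timp3 was far above all others, at 181 CPM per kb in LOY and 235 CPM per kb in Control kidneys, followed by Timp2 at 30.6 and 25.0 CPM per kb, and neither range met the next. Timp1 (10.7), Mmp2 (8.36) and Mmp14 (7.13 CPM per kb) followed in LOY kidneys with overlapping ranges, against Mmp2 (5.25), Timp1 (3.92) and Mmp14 (3.32 CPM per kb) in Control kidneys. Mmp7 ranked above Mmp12 in LOY kidneys, at 3.08 and 1.01 CPM per kb, and below it in Control kidneys, at 0.426 and 0.488 CPM per kb, with overlap in both groups. This order rests on exon lengths joined over all annotated transcripts, 1068 bases for Mmp7 and 7237 for Mmp12. In plain CPM, Mmp12 was the higher in LOY kidneys, at 7.30 against 3.29. The shares of the proteases rest on the same lengths. Mmp7 made up 9.97% to 17.5% of the summed level of the 5 proteases in LOY kidneys, against 1.07% to 9.40% in Control kidneys.

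The 3 inhibitors together exceeded the 5 proteases in every kidney. The ratio of their summed CPM per kb averaged 12.1 ± 4.45 in LOY kidneys and 27.9 ± 6.14 in Control kidneys (SD, n = 6 each). It ranged from 6.90 to 18.3 in LOY kidneys and from 18.2 to 33.6 in Control kidneys, and the groups met where LOY animal 14 and Control animal 3 lay. The inhibitor sum was mostly Timp3, which made up 81.2% of it on average in LOY and 88.9% in Control kidneys. Such a ratio is one of transcripts and not of active enzyme.

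**Figure D2:**
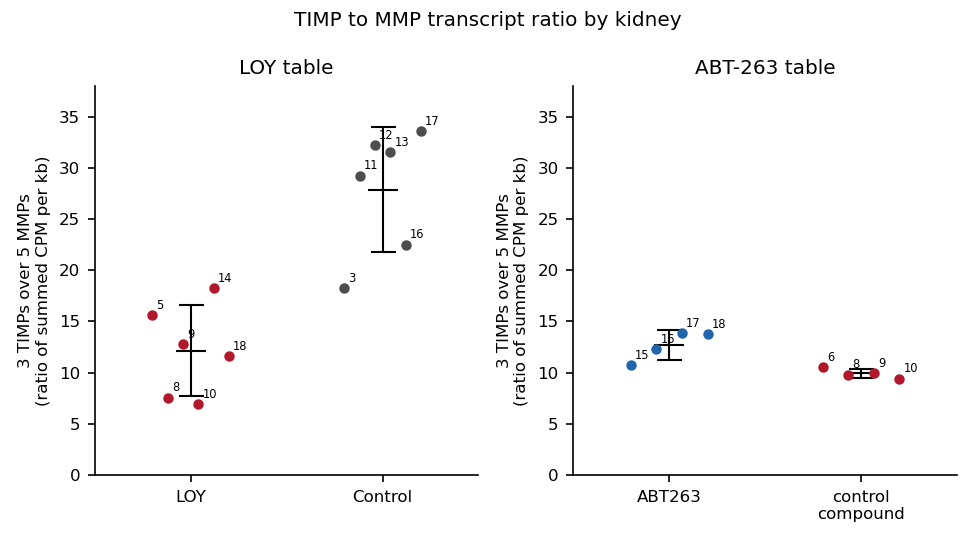
Ratio of the summed CPM per kb of Timp1, Timp2 and Timp3 to that of the 5 proteases in each kidney of the LOY table (left: LOY, Control) and the ABT-263 table (right: ABT263, control compound); points carry animal numbers and black marks and bars are the mean ± SD. LOY kidneys lie at 6.90 to 18.3 and Control kidneys at 18.2 to 33.6, and ratios are not compared between the tables.

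Within the groups, LOY animal 10 was the highest LOY kidney for 7 of the 8 genes, all but Timp3. LOY animal 14 was the lowest for 5 of the 8. Control animal 3 was the highest Control kidney for Mmp2, Mmp9, Mmp14 and Timp1 and the lowest for Timp3. The deviations of log2 CPM from the group means gave Pearson correlations over the 12 kidneys of -0.85 for Mmp14 with Timp3, 0.73 for Mmp12 with Mmp14, and 0.69 both for Mmp2 with Mmp14 and for Mmp9 with Timp1. Those of Mmp7 with the other 7 genes ran from -0.56 to 0.26. Each point is 1 library measured for both genes, so shared depth and scaling enter, and no test is attached.

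Among 14396 genes, those whose deviations were most like those of Mmp7 were Ripk2 (r = 0.88), 2810408A11Rik (0.87) and Klhdc8b (0.83). Mmp14 was closest to Arpc1b, Tmem171 and Krt8, the last a keratin of injured tubules, each with r = 0.95. Timp1 was close to Aldh1a2 (0.92) and Arrb2 (0.89), and Timp3 was closest to Ergic1 (0.98), 9530068E07Rik (0.97) and Zdhhc9 (0.97). For Mmp2 the closest were Fgfr1op and Lxn (both 0.93) and Smad1 (0.92), and for Mmp12 Tmem136 and Bbc3 (both 0.95) and Rcsd1 (0.94). Mmp9 was closest to Col6a3 (0.88), St3gal4 and Marcks (both 0.86), and Timp2 to Dsp and Gng2 (both 0.94) and Wnt5a (0.93). These names describe 12 libraries and carry no test.

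Markers of other cell types were read in the same kidneys. The summed level of 10 injured tubule markers was 1219 to 2668 CPM in LOY and 761 to 1502 CPM in Control kidneys. Of the 10, 5 passed the threshold as higher, against 1.11% of all genes tested. Control animal 3 gave the Control maximum, the other 5 lying at 761 to 870 CPM, and LOY animal 10 gave the LOY maximum, so the kidneys highest in Timp1 within each group were also the highest in these markers. The same kidneys were also the highest of their groups for macrophage and monocyte, neutrophil, and fibroblast and mural markers. For proximal tubule markers they were the lowest. For 10 macrophage and monocyte markers the sum was 438 to 587 CPM in LOY and 288 to 406 CPM in Control kidneys, without overlap. Of these markers 3 of 10 passed as higher, against 1.11% of all genes. Over all genes, 1.56% were higher in LOY kidneys without overlap. The marker calls come from the fit of all kidneys and were not followed when kidneys were left out. Fibroblast and mural markers summed to 399 to 729 CPM in LOY and 268 to 476 CPM in Control kidneys, with 0 of 10 past the threshold. Neutrophil markers summed to 4.90 to 13.4 CPM in LOY and 3.30 to 7.32 CPM in Control kidneys (0 of 2 tested), and urothelial markers to 46.4 to 234 CPM in LOY and 18.3 to 130 CPM in Control kidneys (0 of 7). The 10 proximal tubule markers summed to 6527 to 12907 CPM in LOY and 12390 to 16049 CPM in Control kidneys, with 0 past the threshold. No marker of these lists was without a count over the LOY table as a whole, and a count of 0 within a single group was not looked for. The part of these cell types in the MMP and TIMP differences was not tested, and in whole tissue fewer cells of a type and less RNA per cell cannot be told apart.

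**Figure D3:**
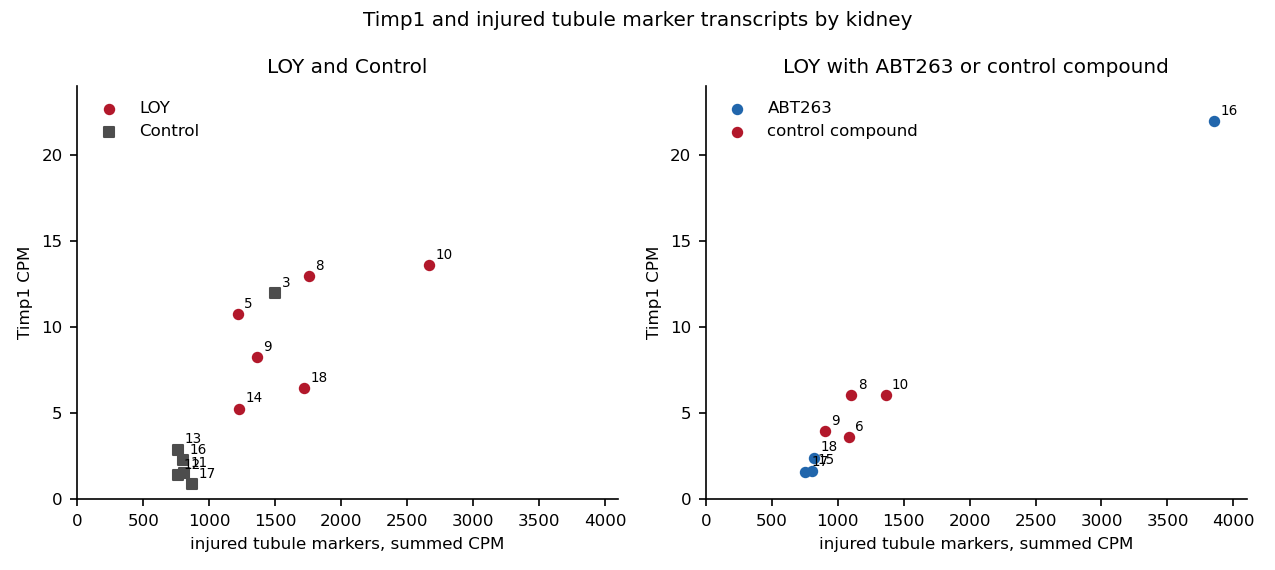
Timp1 level in CPM against the summed CPM of 10 injured tubule markers, 1 point per kidney labelled with the animal number, for LOY and Control kidneys (left) and for LOY kidneys given ABT263 or the control compound (right). Control animal 3 (12.0 CPM) and ABT263 animal 16 (22.0 CPM) lie high on both axes, away from the rest of their groups.

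Genes around the set were read from 5 lists of the protease system, chosen like the set with earlier results of these data known. Of their 68 genes tested, 3 passed the threshold as higher in LOY kidneys, against 1.11% of all genes tested. As lower passed 0, against 0.0601%. The list calls and their adjusted p are descriptions and are not read as a result. Of 18 other MMPs, 8 were tested and 0 passed, 6 being positive with a median log2 fold change of 0.30. Those with the smallest p were the membrane protease Mmp23 (0.72 ± 0.23, edgeR adjusted p = 0.120), the membrane protease Mmp15 (0.90 ± 0.37, adjusted p = 0.185) and stromelysin Mmp3 (0.91 ± 0.38, adjusted p = 0.187). In the chromosome 9 cluster, Mmp13 and Mmp3 were the only genes tested beside Mmp7 and Mmp12; Mmp13 had 1.98 ± 1.03 CPM in LOY and 1.86 ± 0.599 CPM in Control kidneys (SD, n = 6 each). Mmp27, next to Mmp20 and below the filter, had 34 reads over the LOY libraries and 4 over the Control libraries, and Mmp1a and Mmp1b had 0 in both.

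Of 5 other inhibitors 3 were tested, with 0 calls and no positive change: the protease trap Pzp (-0.51), Tfpi2 (-0.18) and Reck (-0.03). Among 16 genes of MMP activation, anchoring and clearance, 12 were tested, 8 were positive, and Cd44 alone passed. CD44, a hyaluronan receptor that can hold MMP7, MMP9 and MMP14 at the cell surface, had 14.9 to 35.3 CPM in LOY and 7.32 to 13.7 CPM in Control kidneys, without overlap (1.33 ± 0.21, edgeR adjusted p = 0.0230). Among 25 ADAM and ADAMTS proteases, 22 were tested, 15 were positive with a median of 0.21, and Adam8 passed. ADAM8, a membrane protease of leukocytes, rose by 1.33 ± 0.30 (edgeR adjusted p = 0.0476), with 4.61 to 8.59 CPM in LOY and 1.54 to 5.54 CPM in Control kidneys. Among 24 MMP substrates 23 were tested, 20 were positive with a median of 0.29, and Spp1 passed. Spp1, which encodes osteopontin, a phosphoprotein cut by several MMPs, had 2676 to 6688 CPM in LOY and 1283 to 2478 CPM in Control kidneys, without overlap (1.25 ± 0.24, edgeR adjusted p = 0.0330). Over all genes, 1.56% were higher in LOY kidneys without overlap. The 3 calls fell to 0 without LOY animal 10 or any one of Control animals 11, 12, 13, 16 and 17. Without Control animal 3 they were 11, and 607 passed over all genes. With the number class as a term 0 passed, and without LOY animals 8 and 10 only 1 did, against 0 and 29 over all genes.

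With ABT263, 0 of the 7 members tested passed the threshold as higher or as lower, against 0% of the 16956 genes tested in each direction. Over all genes edgeR made 0 calls, with 1002 genes at an unadjusted p under 0.05, DESeq2 made 44 and voom 7. Mmp7 did not pass the filter on low counts. Of the 7 tested, 2 were positive (Timp1 and Timp3), and their median log2 fold change was -0.20, beside -0.003 over all genes. None of the 8 genes was higher in all 4 ABT263 kidneys than in all 4 control-compound kidneys, against 2.04% of all genes, and none was lower, against 2.25%.

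Mmp14 came nearest to separating these groups. ABT263 animals 15, 16, 17 and 18 had 27.9, 29.6, 25.8 and 23.9 CPM, against 35.9, 39.6, 29.3 and 36.3 CPM in control-compound animals 6, 8, 9 and 10. Only ABT263 animal 16 lay above a control-compound kidney, animal 9. The means were 26.8 ± 2.49 CPM with ABT263 and 35.3 ± 4.30 CPM with the control compound (SD, n = 4 each), and the log2 fold change of -0.40 ± 0.11 did not pass. It stayed between -0.48 and -0.34 when single kidneys were left out.

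Timp1 had 1.65, 22.0, 1.55 and 2.42 CPM in ABT263 animals 15, 16, 17 and 18, against 3.58, 6.03, 3.96 and 6.03 CPM in control-compound animals 6, 8, 9 and 10. Animal 16 was the highest of all 8 kidneys, and the other 3 ABT263 kidneys lay below every control-compound kidney. The log2 fold change was 0.49 ± 0.89 with all kidneys and -1.39 ± 0.29 without animal 16, and neither passed. Mmp7 showed the same kidney: 0.396, 2.02, 0.104 and 0.0690 CPM in ABT263 animals 15, 16, 17 and 18, against 0.587, 0.380, 0.540 and 1.05 CPM in control-compound animals 6, 8, 9 and 10. These levels rest on 6, 35, 2 and 1 reads with ABT263 and 10, 8, 9 and 21 reads with the control compound. The correlation of the deviations of Mmp7 and Timp1 was 0.83 over these 8 kidneys, with animal 16 high for both. Animal 16 also had the highest sum of injured tubule markers, 3855 CPM, the other ABT263 kidneys having 753 to 821 CPM and the control-compound kidneys 905 to 1364 CPM. It had the highest sum of fibroblast and mural markers as well, 845 CPM, and the lowest of proximal tubule markers, 8332 CPM. The part of tubule injury or of these cell types in the Timp1 and Mmp7 values was not tested.

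The other proteases overlapped between the treatments. Mmp2 had 28.1, 16.4, 21.0 and 17.0 CPM in ABT263 animals 15 to 18, against 16.3, 25.9, 22.3 and 24.2 CPM in control-compound animals 6, 8, 9 and 10 (log2 fold change -0.11 ± 0.19). Leaving out single kidneys gave -0.29 (without ABT263 animal 15) to -0.0075 (without ABT263 animal 16) for Mmp2. Mmp12 had 6.33, 3.58, 3.78 and 7.73 CPM with ABT263, against 2.70, 8.16, 7.86 and 6.68 CPM with the control compound (-0.26 ± 0.36), and -0.51 (without control-compound animal 6) to -0.10 (without ABT263 animal 16) when single kidneys were left out. Mmp9 had 2.57, 1.16, 0.880 and 1.86 CPM with ABT263, against 1.12, 1.85, 1.68 and 2.69 CPM with the control compound (-0.20 ± 0.39), a difference that turned positive at 0.044 without control-compound animal 10 and at 0.011 without ABT263 animal 17, and was -0.069 without ABT263 animal 16. The macrophage and monocyte markers summed to 400 to 443 CPM with ABT263 and 420 to 688 CPM with the control compound. Fibroblast and mural markers summed to 471 to 845 CPM with ABT263 and 402 to 667 CPM with the control compound, and neutrophil markers to 3.86 to 6.18 CPM with ABT263 and 4.24 to 8.28 CPM with the control compound. None of these markers passed the threshold, and their part in the protease levels was not tested.

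For the other inhibitors, Timp2 had 105, 62.3, 97.3 and 85.4 CPM in ABT263 animals 15 to 18, against 95.6, 116, 89.5 and 111 CPM in control-compound animals 6, 8, 9 and 10 (log2 fold change -0.24 ± 0.15, or -0.10 ± 0.11 without ABT263 animal 16). Timp3 had 1075, 925, 1072 and 996 CPM with ABT263, against 801, 1007, 882 and 936 CPM with the control compound (0.17 ± 0.10). ABT263 animal 16 was the lowest of its group for both. The ratio of inhibitors to proteases was 12.7 ± 1.46 with ABT263 (10.7 to 13.9) and 9.93 ± 0.451 with the control compound (9.42 to 10.5; SD, n = 4 each), without overlap, although no single gene of the set was free of it. The ratio was looked at beside several other sums and shares of the set and carries no test.

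**Figure D4:**
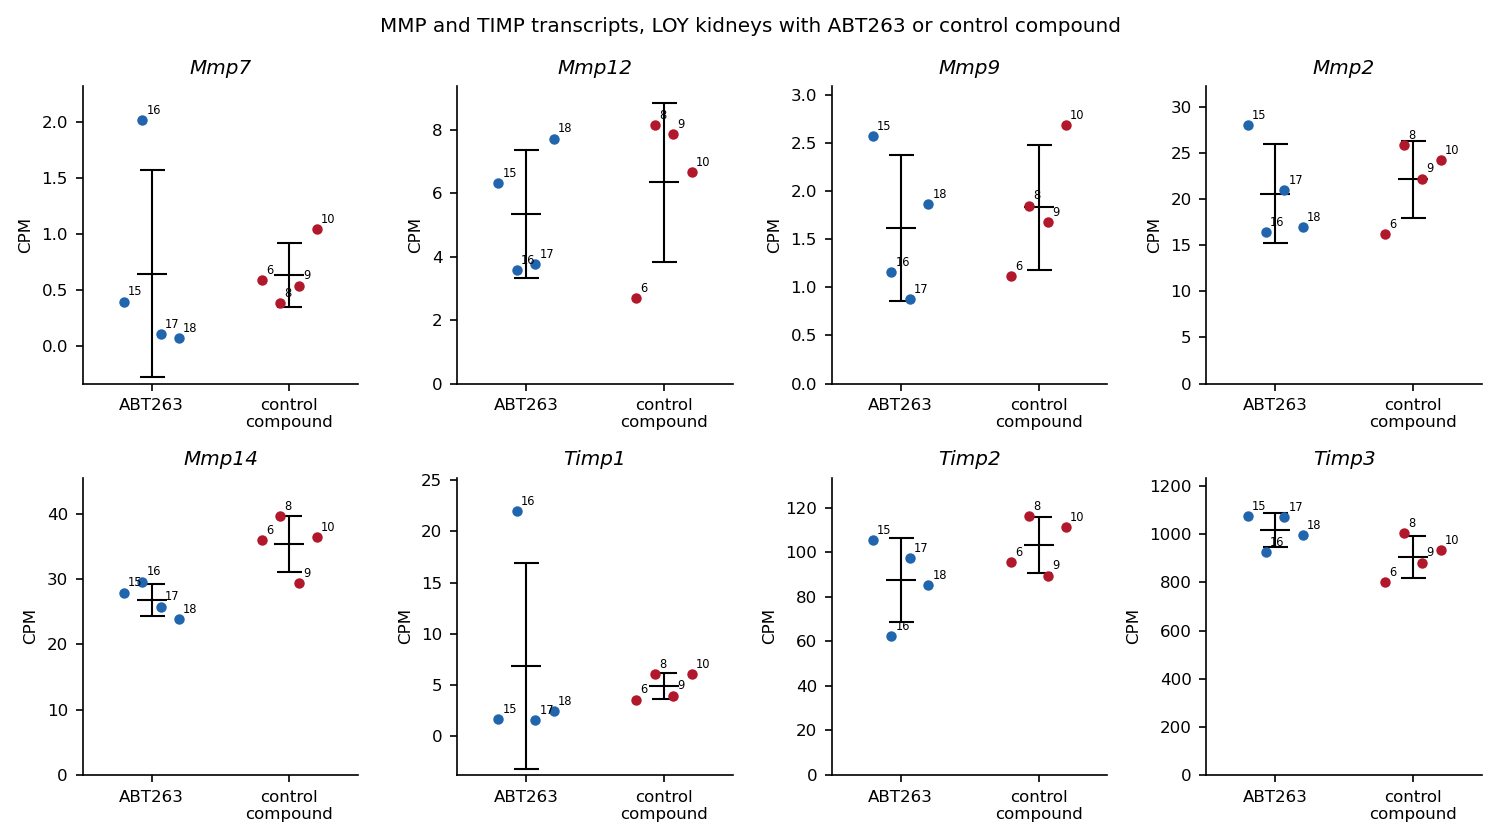
Level in CPM (linear axis) of each of the 8 genes in 4 LOY kidneys given ABT263 and 4 given the control compound; points are kidneys labelled with the animal number, and black marks and bars are the mean ± SD, some of which reach below 0. Timp1 and Mmp7 are high in ABT263 animal 16 alone, at 22.0 and 2.02 CPM, and Mmp14 is lower in 3 of 4 ABT263 kidneys than in every control-compound kidney.

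**Figure D5:**
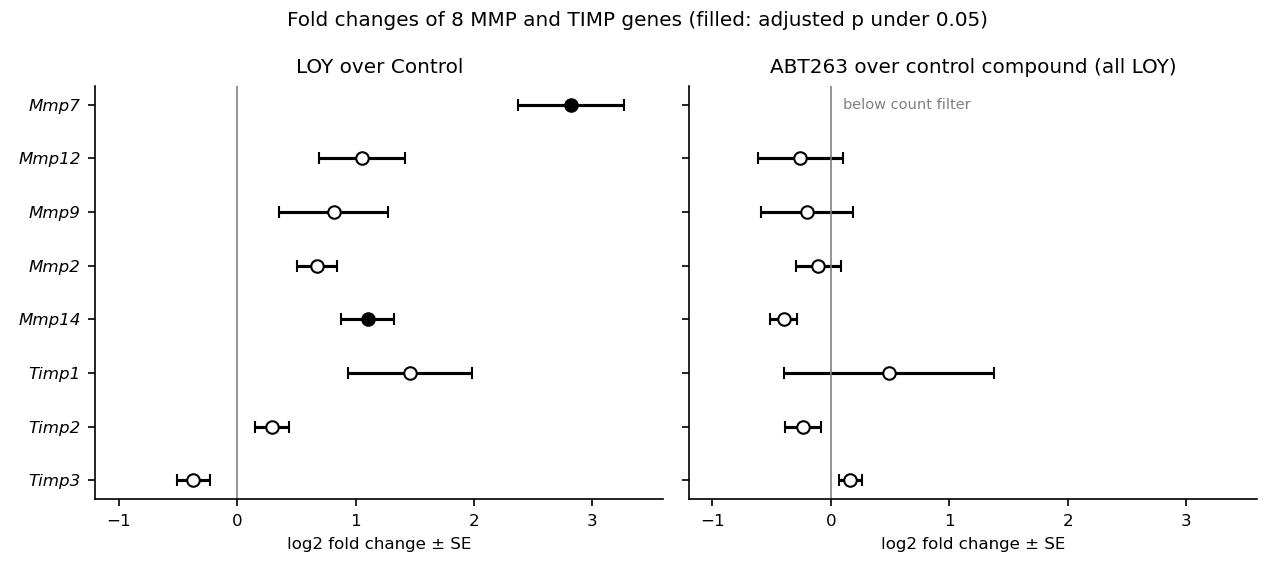
Log2 fold change ± SE of each gene for LOY over Control (left, 6 kidneys each) and ABT263 over control compound in LOY animals (right, 4 kidneys each); filled points passed an edgeR adjusted p of 0.05. Mmp7 (2.82) and Mmp14 (1.10) are filled on the left, no point is filled on the right, and Mmp7 was below the count filter there.

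In the lists around the set, 0 genes passed with ABT263. Mmp23 was lower in all 4 ABT263 kidneys, at 4.55 to 5.61 CPM, than in the control-compound kidneys, at 6.48 to 9.47 CPM (-0.58 ± 0.17, edgeR adjusted p = 0.657). Versican (Vcan), a proteoglycan cut by ADAMTS proteases, was higher in all 4, at 5.89 to 11.5 CPM against 1.70 to 4.70 CPM (1.67 ± 0.33, adjusted p = 0.536), and so was Adamts9, one of those proteases, at 22.9 to 28.9 CPM against 14.3 to 22.5 CPM (0.36 ± 0.15, adjusted p = 0.827). Without overlap lay 1 of 9 other MMPs, as lower, against 2.25% of all genes. As higher lay 1 of 23 ADAM and ADAMTS proteases and 1 of 23 substrates, against 2.04%. None lay so among the other inhibitors or the genes of activation and anchoring. These separations are not read as a result. Cd44 had 9.96 to 14.0 CPM with ABT263 and 10.6 to 28.4 CPM with the control compound (-0.66 ± 0.26, adjusted p = 0.816). Median log2 fold changes were 0.13 over the 9 other MMPs tested, -0.03 over 4 inhibitors, -0.02 over 12 genes of activation and anchoring, 0.05 over 23 ADAM and ADAMTS proteases and 0.12 over 23 substrates.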

How the data were processed

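Whole-kidney RNA was sequenced, and the authors deposited raw gene counts in 1 table for 6 LOY and 6 Control kidneys and another for 4 ABT263 and 4 control-compound kidneys, all LOY. The genome build was mm10, per the submitters' processing notes. The sources used here name no aligner, counter or annotation and do not say whether counting used strand. The reads without a gene, 0.223% to 0.401% of counts in the LOY table, were left out.

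Each table was tested alone in R 4.3.3 with edgeR 4.0.16 (filterByExpr at a minimum count of 10 and total of 15, TMM factors, robust quasi-likelihood F test, Benjamini-Hochberg adjustment, threshold 0.05), checked on simulated data. The SE was taken as the absolute log2 fold change divided by the root of F. DESeq2 1.42.0, voom with quality weights (limma 3.58.1), other scalings and filters and left-out kidneys were tried. CPM per kb used GENCODE M21 exon lengths (GRCm38). Likeness used log2 CPM (prior count 2) of genes averaging 1 CPM or more.

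The members and lists were chosen with earlier results of these data known. Text names all members, list genes past the threshold (otherwise up to 3 of smallest p), the 3 genes most like each member (1 is not reported here), and overlapping genes; cluster neighbours were added after their values were seen. In ABT263 kidneys, list genes named are among those of smallest p. The labels number the animals; whether equal numbers in the 2 tables mark the same animal is not given.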

Additional observations from a re-analysis of the deposited data

Results flagged for a closer look

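In 4 cases 1 kidney stood apart from the rest of its group by a gap test at the 95% level, which flags about 1 in 20 groups by chance. The test was run for every gene of the set in every group of both tables, so some of these flags can arise by chance. Mmp12 had 14.7 CPM in LOY animal 10, the other 5 LOY kidneys lying at 3.18 to 7.47 CPM. Timp1 had 12.0 CPM in Control animal 3, with the other 5 Control kidneys at 0.870 to 2.88 CPM. Among the ABT263 kidneys, animal 16 had 2.02 CPM of Mmp7, against 0.0690 to 0.396 CPM in the other 3, and 22.0 CPM of Timp1, against 1.55 to 2.42 CPM.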

How the results depend on the processing

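The number of the 8 genes past the threshold between LOY and Control kidneys was 2; it was 4 with DESeq2, 4 with voom, 4 among animals numbered above 10 alone and 4 without LOY animal 10 and Control animal 3 (chosen after the data were seen), 1 without LOY animals 8 and 10, 0 with the number class as a term, and 0 to 4 when single kidneys were left out. For the lists around them the count of 3 became 8 with DESeq2, 14 with voom, 15 among animals numbered above 10 alone, 6 without LOY animal 10 and Control animal 3, 1 without LOY animals 8 and 10, 0 with the number class as a term, and 0 to 11 with single kidneys left out. The other scalings and filters gave 2 of the 8 genes and 2 or 3 list genes. Calls over all genes moved as well, from 176 to 866 with DESeq2, 1077 with voom and 451 among animals numbered above 10 alone. They were 607 without Control animal 3 and 218 without LOY animal 10 and Control animal 3. Without LOY animals 8 and 10 they were 29, and with the number class as a term 0. The changes in these counts are thus not particular to the set or the lists. With ABT263 the count of list genes, 0, became 1 with DESeq2, 1 with voom and 0 to 1 with single kidneys left out, while that of the members stayed 0 in every setting run. Signs turned for Timp1 with ABT263 under voom (-1.21) and without ABT263 animal 16 (-1.39), and for Mmp9 without control-compound animal 10 (0.044) and without ABT263 animal 17 (0.011); over single kidneys left out, the 2 genes ranged from -0.51 to 0.044 for Mmp9 and from -1.39 to 0.83 for Timp1. No sign turned between LOY and Control kidneys. The cause of these changes was not tested. No paired analysis was possible because the groups compared share no animal numbers. Mmp7 in Control kidneys and in the ABT-263 table rests on few reads, which limits its fold changes.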
